A study of Mus musculus with 8 samples.

Results

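The genes described here encode 10 subunits of the ionotropic glutamate receptors, the ligand-gated ion channels of excitatory synapses: the NMDA receptor genes Grin1, Grin2a, Grin2b, Grin2c and Grin2d, the AMPA receptor genes Gria1, Gria2 and Gria4, and the kainate receptor genes Grik1 and Grik2. They are 10 of 21078 protein-coding genes with a replication timing value. The list was chosen by measured values of the same comparison, because Grin2a lies in a run of the genome that moved earlier, so the members' differences between groups are given as a description and carry no test. All 10 members have score windows inside the gene body, and none took its value from a neighbouring window. The data are Repli-seq profiles of E14Tg2a mouse embryonic stem cells, an XY line of the 129/Ola background, in which the insulator protein CTCF carries a degron that auxin triggers. Auxin-treated cells were kept for 2 days in 500 µM indole-3-acetic acid, and control cells of the same degron line received none. DNA made during a 2-hour BrdU pulse was recovered from cells sorted by propidium iodide into early and late S phase, and 8 libraries, an early and a late one per replicate, give 4 profiles with 2 in each group. Auxin-treated cells that lack the degron are not analysed here, so the effects of auxin itself and of CTCF loss cannot be told apart, and the loss of CTCF was not measured in these files. The labels do not say that the replicates came from separate cultures, so the spread between them may be technical.

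Each profile assigns a timing score to 316864 windows on a 6-kb grid, and a higher score means that the window is copied earlier in S phase. The sources used here do not give the scale of the score. Its SD over all windows is 2.10, and the middle of the distribution runs from -1.91 at the lower quartile to 1.77 at the upper. All profiles were forced to the same distribution of scores, so a shift of the whole genome would not be visible. Timing scores hold no expression. The loci of the stem cell markers Pou5f1, Nanog, Sox2, Zfp42 and Esrrb were all early in these profiles, which places those loci and says nothing about their transcripts.

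Ionotropic glutamate receptors are tetramers. NMDA receptors join the glycine-binding subunit encoded by Grin1 with glutamate-binding subunits encoded by the Grin2 genes, and act as calcium-permeable coincidence detectors in synaptic plasticity. AMPA receptors carry most fast excitatory transmission, and kainate receptors modulate transmission on both sides of the synapse. Replication timing is set over long domains, in which early domains tend to be gene-rich and open and late domains gene-poor and compact, and long neuronal genes often lie in late domains in cells that do not use them.

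The receptor genes differ widely in length and promoter composition. RefSeq promoter windows of GRCm38.p6, from 250 bases before to 50 bases after the annotated start, were matched for 6 of the 10 members: Grin1, Grin2c, Grin2d, Gria2, Gria4 and Grik2. Of these, 4 are printed, from the pair of earliest genes (Grin1 and Grin2d), the latest gene with an entry (Grik2) and the gene whose start and body differed in opposite directions (Gria4), so that early and late loci can be read side by side. All are on the minus strand, are written 5′ to 3′, and have each CpG dinucleotide in capitals. The windows are chr2:25319138-25319437 for Grin1, chr7:45866632-45866931 for Grin2d, chr10:49788705-49789004 for Grik2 and chr9:4796185-4796484 for Gria4.
Grin1: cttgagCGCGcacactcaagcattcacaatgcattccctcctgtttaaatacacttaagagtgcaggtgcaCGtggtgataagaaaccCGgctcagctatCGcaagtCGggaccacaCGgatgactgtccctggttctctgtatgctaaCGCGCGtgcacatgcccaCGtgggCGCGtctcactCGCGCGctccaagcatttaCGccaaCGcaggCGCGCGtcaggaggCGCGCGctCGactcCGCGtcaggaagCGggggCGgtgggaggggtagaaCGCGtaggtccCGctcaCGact
Grin2d: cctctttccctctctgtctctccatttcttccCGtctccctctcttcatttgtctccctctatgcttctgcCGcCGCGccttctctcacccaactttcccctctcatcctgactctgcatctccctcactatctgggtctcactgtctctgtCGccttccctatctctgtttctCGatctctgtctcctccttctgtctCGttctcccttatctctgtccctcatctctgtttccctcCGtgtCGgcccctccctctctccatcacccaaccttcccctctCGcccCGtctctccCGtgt
Grik2: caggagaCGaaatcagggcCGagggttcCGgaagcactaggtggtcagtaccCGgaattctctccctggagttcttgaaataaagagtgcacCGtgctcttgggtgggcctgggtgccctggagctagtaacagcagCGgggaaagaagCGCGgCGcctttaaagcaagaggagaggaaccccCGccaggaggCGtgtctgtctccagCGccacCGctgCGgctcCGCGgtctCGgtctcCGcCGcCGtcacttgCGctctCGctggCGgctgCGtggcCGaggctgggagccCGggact
Gria4: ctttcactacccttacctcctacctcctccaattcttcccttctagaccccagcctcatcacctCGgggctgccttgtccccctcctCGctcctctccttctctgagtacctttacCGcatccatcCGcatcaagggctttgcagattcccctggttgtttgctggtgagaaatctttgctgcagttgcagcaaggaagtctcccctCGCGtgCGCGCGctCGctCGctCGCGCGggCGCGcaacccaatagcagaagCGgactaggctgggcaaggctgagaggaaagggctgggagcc
CpG dinucleotides numbered 33 in the Grin1 window, 26 in Gria2, 26 in Grik2, 22 in Grin2c, 17 in Gria4 and 12 in Grin2d, against a median of 7 over 32851 promoters. The count did not follow timing among these 6: the late Grik2 and Gria2 hold more CpG than the early Grin2d, and the early Grin1 holds the most. The windows of Grin2d, Gria2 and Grik2 lie wholly inside the gene bodies given below. Their annotated start is thus not the outer end of the gene, and the comparison holds for these windows only. The letters CCACNAG and AGGGGGC, searched on both strands as short stretches of the CTCF motif, were found in none of the 6 windows, and 15.3% and 10.6% of all promoter windows hold them. A short match or its absence in this window says nothing about where CTCF binds.

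The NMDA receptor genes ranged from clearly early to somewhat late, with control means from -0.89 to 3.27. Grin1, the subunit that every NMDA receptor needs, lies at 25291177 to 25319187 on chromosome 2. It scored 2.77 and 3.55 without auxin and 3.72 and 3.78 with it (3.16 ± 0.55 and 3.75 ± 0.043, SD, n = 2 each). All 4 values were early, both auxin values lay above both control values, and the groups differed by 0.59, less than the gap of 0.78 between the control replicates. The difference was 0.20 without control replicate 1, 0.99 without control replicate 2 and 0.22 with 50 kb added on both sides. Grin2c, a subunit known from cerebellar granule cells, lies at 115249169 to 115267297 on chromosome 11 and scored 3.28 and 2.82 without auxin and 3.07 and 3.57 with it. Its groups overlapped, with means of 3.05 ± 0.33 and 3.32 ± 0.36 (SD, n = 2) and a difference of 0.27, which lay between 0.022 and 0.52 with a profile left out. Grin2d, a subunit best known from the developing brain and from interneurons, lies at 45831883 to 45871194 on chromosome 7. It scored 3.23 and 3.31 in control cells and 3.28 and 3.10 with auxin, so that the groups overlapped and differed by -0.077. These 3 short genes, of 28.0, 18.1 and 39.3 kb, rest on only 4, 3 and 5 windows.

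The remaining NMDA receptor genes were long and replicated later. Grin2a, the subunit that rises in the maturing forebrain, covers 428 kb of chromosome 16, from 9567901 to 9996083, and 73 windows. It scored -0.74 and -1.05 in control cells and -0.029 and -0.087 with auxin (-0.89 ± 0.22 and -0.058 ± 0.041, SD, n = 2). Both auxin values were higher than both control values, and the difference of 0.83 was larger than the gap of 0.31 between the control replicates and of 0.057 between the auxin replicates. Grin2b, the subunit that prevails in the embryonic forebrain, covers 460 kb of chromosome 6, from 135713221 to 136173615, and 78 windows. It scored -0.96 and -0.82 in control cells and -0.74 and -0.60 with auxin. The groups did not overlap, but the difference of 0.22 was small beside that of Grin2a, although both genes had a control mean of -0.89. As a median over windows the difference of Grin2b was 0.064.

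The AMPA receptor genes were all late and lay close together. Gria1, whose subunit is added to synapses during potentiation, covers 319 kb of chromosome 11 from 57011571 to 57330244 and scored -2.17 and -2.37 in control cells and -2.14 and -2.02 with auxin. The groups did not overlap, but the difference of 0.19 was no larger than the gap of 0.20 between the control replicates, and it was 0.090 without control replicate 2. Gria2, whose edited transcript makes AMPA receptors impermeable to calcium, covers 123 kb of chromosome 3 from 80681450 to 80804227. Its scores were -2.41 and -2.19 in control cells and -2.11 and -2.75 with auxin, so that the auxin replicates enclosed both control values and lay 0.64 apart. Gria4, a subunit prominent in thalamus and interneurons, covers 378 kb of chromosome 9 from 4417893 to 4796234 and scored -2.12 and -2.06 in control cells and -2.23 and -2.46 with auxin. Both auxin values were lower than both control values, and the difference of -0.26 was close to the gap of 0.22 between the auxin replicates. It was -0.14 without auxin replicate 2 and -0.12 as a median over windows.

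Both kainate receptor genes on the list were late, and Grik1 was the latest of the 10. Grik2, the widely expressed kainate subunit and the longest member at 696 kb, lies on chromosome 10 from 49093680 to 49790161 and scored -2.69 and -2.31 in control cells and -2.59 and -2.51 with auxin. Its auxin values lay between the control values, with a difference of -0.052. Grik1 covers 395 kb of chromosome 16 from 87895901 to 88290863, far from Grin2a on the same chromosome, and scored -2.94 and -2.94 in control cells and -3.16 and -3.13 with auxin. The replicates lay very close together (SD 0.0047 and 0.020), the groups did not overlap and the difference was -0.21, or -0.13 with 50 kb added on both sides. Grik1 had windows at 35 of the 67 grid places over its body and Grik2 at 59 of 117, so these late means rest on about every other place, and Gria4 had 47 of 64. The part of the missing places in the scores was not tested.

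**Figure D1:**
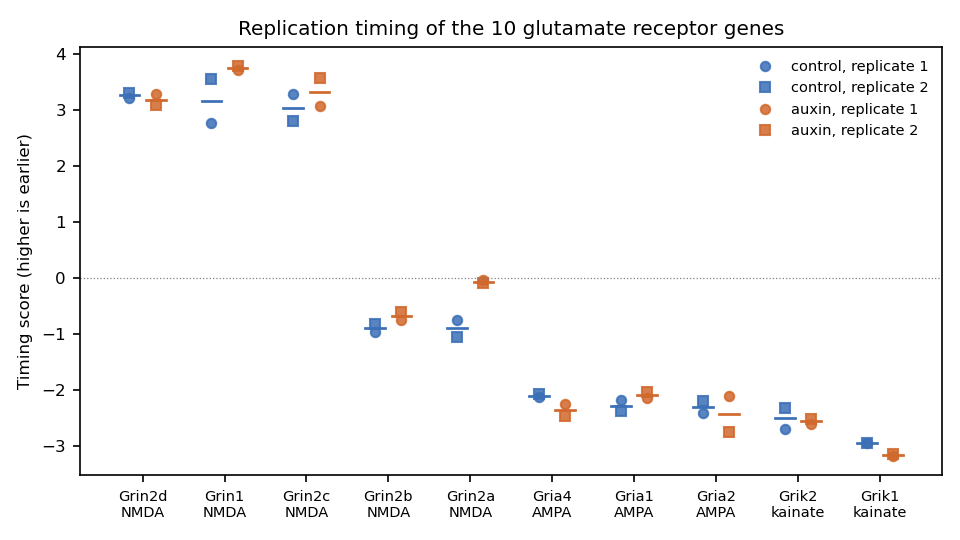
Timing score (vertical axis, score units, higher is earlier) of each member, ordered by control mean along the horizontal axis. Points are profiles (circle replicate 1, square replicate 2), short lines are group means, control in blue and auxin in orange; 3 NMDA receptor genes lie between 2.77 and 3.78, Grin2b and Grin2a between -1.05 and -0.029, and the AMPA and kainate genes between -2.02 and -3.16.

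Ordered by control mean, the members ran Grin2d, Grin1, Grin2c, Grin2b, Grin2a, Gria4, Gria1, Gria2, Grik2 and Grik1. Only 3 steps in this order held in all 4 profiles without overlap: the gap of 3.94 between Grin2c and Grin2b, the gap of 1.20 between Grin2a and Gria4, and the gap of 0.44 between Grik2 and Grik1. Gria4 lay above Gria1 in the control profiles and below it in the auxin profiles, without overlap in either group. In the control profiles, Grin2d, Grin1 and Grin2c did not differ beyond their spread, nor did Grin2b and Grin2a, nor Gria1, Gria2 and Grik2. In the auxin profiles, Grin2a (-0.029 and -0.087) lay above Grin2b (-0.74 and -0.60) without overlap. Grin1 then lay above Grin2c and Grin2d, and Gria1 above Grik2. With scores above 0.5 taken as early and below -0.5 as late on the mean of all 4 profiles, 3 members were early, 1 (Grin2a) was in the middle and 6 were late, against 67.1%, 9.02% and 23.9% of all genes. Grin2a was in the middle only through its auxin values, since its control mean of -0.89 lies below -0.5. The members are long for protein-coding genes, with a median length of 349 kb against 17.7 kb over all genes. Of the 6 members over 300 kb, 5 were late by this mean, all but Grin2a, and of the 557 genes over 300 kb, 69.5% were. Across the 10 members, length and control score had a Spearman rho of -0.56, as a description of genes that share profiles, and over all genes rho was -0.048.

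With auxin, 4 of the 10 members lay earlier without overlap between groups (Grin1, Grin2a, Grin2b and Gria1), where 23.9% of all genes did, and 2 lay later (Gria4 and Grik1), where 25.9% did. Nothing is read from these counts, since the list was selected on this comparison. The median difference over the members was 0.069, against -0.00049 over all genes. In a limma fit over all genes with Benjamini-Hochberg adjustment, 0 of the members and 0 of the 21078 genes were called (0% called), while 3610 genes (17.1%) had an unadjusted p under 0.05. A difference at least as large as that of Grin2a in either direction was found in 4.95% of all genes and in 2.15% of genes over 300 kb. Since Grin2a was chosen for lying in a run that moved earlier, these shares are a description and no test.

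**Figure D2:**
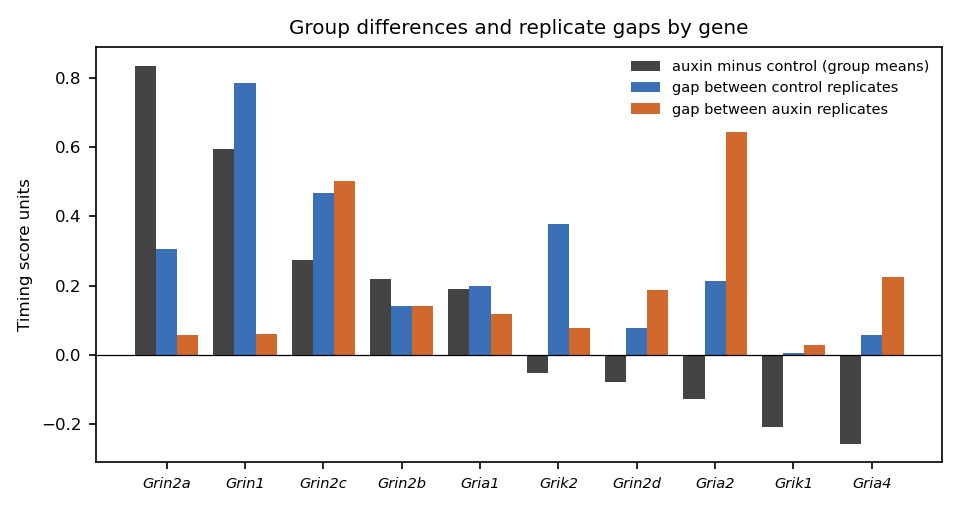
Auxin minus control (grey bars, difference of group means) beside the gap between the control replicates (blue) and between the auxin replicates (orange), in timing score units, for each member. For Grin2a the difference of 0.83 stands above both gaps, for Grin1 the control replicates lie further apart (0.78) than the groups (0.59), and for Gria2 the auxin replicates lie 0.64 apart.

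The difference at Grin2a belonged to a stretch of the genome that reaches far beyond the gene on its low-coordinate side. Over 50-kb bins, limma called a run of 6 bins earlier, at 9350001 to 9650000 on chromosome 16, a span of 300 kb in which Grin2a is the only protein-coding gene. This run is what the list was chosen by, so its call and the size of its difference were fixed by the choice and are given as a description. The run scored -0.20 and -0.24 in control cells and 1.00 and 0.92 with auxin (-0.22 ± 0.027 and 0.96 ± 0.058, SD, n = 2). The groups were far apart beside their replicates, with a difference of 1.18, and the mean of the run rose from slightly below 0 to above 0.5. The run is a slope: from its first to its last bin, scores fell from 0.80 to -1.08 in the control mean. In the auxin mean they fell from 2.00 to 0.14. Only 82.1 kb of the run, or 27.4% of it, lies in the gene, and it covers 19.2% of the gene. Of the 68 bins over the members' bodies, 65 had the minimum of 3 windows, and 2 were called earlier, both in Grin2a, and 0 later, where 0.637% and 1.02% of 42710 bins were called. These 2 bins belong to the run itself, and nothing is read from their count.

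The edges of this run were set by the threshold rather than by a step in the scores. The called bins differed by between 1.05 and 1.31, while the bin just below the run differed by 1.05 and the bin just above it by 1.10 without being called. With the trended, robust variance, which called 4626 bins in all, and with the replicate block, which called 2358, all 6 bins and both of these neighbours were called earlier. None of the 6 bins was called when any 1 of the 4 profiles was left out or when bins with fewer than 3 windows were included, although the differences of these bins then lay between 0.96 and 1.45. The authors' deposited table of regions that moved from late to early holds 22 regions, of which 2 adjacent ones lie here. One, at 9414000 to 9546000, ends 21.9 kb short of the gene and averages -0.12 in control cells and 1.08 with auxin in the authors' deposited table. The other, at 9546000 to 9678000, covers 110 kb of the gene, with averages of -0.98 and 0.17 in the authors' deposited table.

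Within Grin2a, the difference was largest at the low-coordinate end and smaller towards the high end. Of the 73 windows, 73 had a higher auxin mean and 71 had groups that did not overlap. These counts are a description, since neighbouring windows are not independent and part of the gene lies in the run that chose the list. The share over all windows was not computed. By 50-kb bins from the low to the high end of the gene, the differences were 1.05, 1.22, 1.10, 0.92, 1.00, 0.60, 0.95, 0.38 and 0.34. The fall was not even, since the bin at 0.60 stands between higher ones. The 58 windows outside the run, which was called for its difference, averaged -0.88 ± 0.24 in control cells and -0.12 ± 0.068 with auxin (SD, n = 2 profiles), without overlap between groups.

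The control profiles form a valley over Grin2a, with early flanks on both sides, and the valley was shallower and narrower with auxin. Its lowest window scored -1.35 and -1.73 in control cells and -0.45 and -0.74 with auxin. Going up the chromosome, scores fell below 0 at 9468505 and 9488064 in control cells, at -99.4 and -79.8 kb from the gene's low end, and at 9633892 and 9648430 with auxin, at 66.0 and 80.5 kb and thus inside the gene. The mean place of this early-to-late crossing lay 163 kb further along with auxin. The stretch between the first fall below 0 and the last rise above it measured 499 and 487 kb in control cells and 301 and 200 kb with auxin, and in auxin replicate 1 it was broken by a short return above 0 between 9656526 and 9693105. Of the 73 gene windows, 67 and 69 lay below 0 in control cells and 43 and 33 with auxin.

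**Figure D3:**
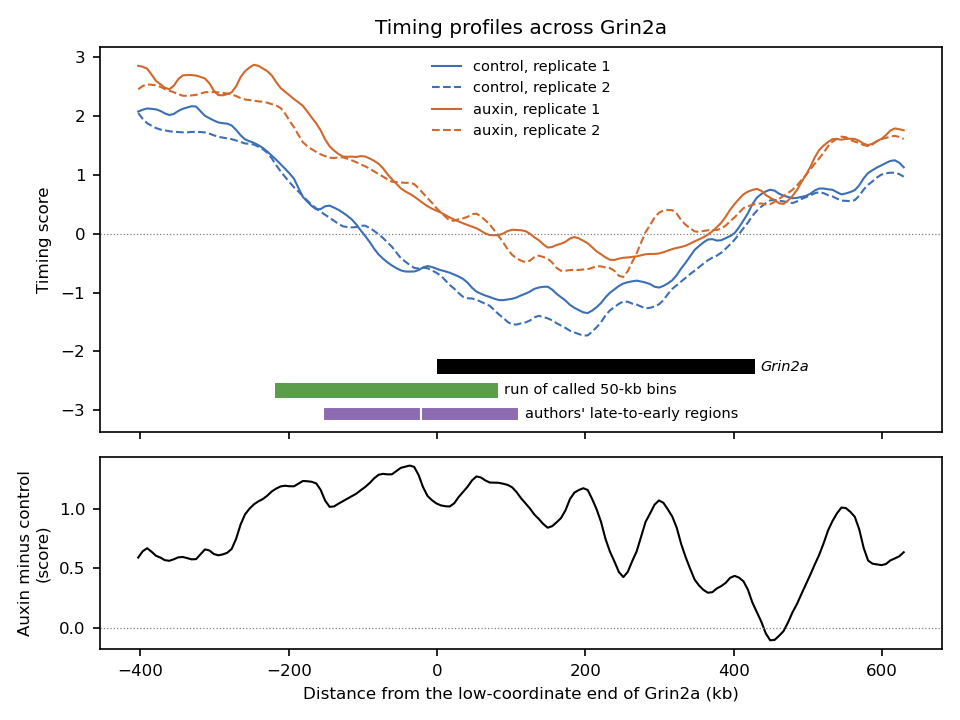
Upper panel, timing score of each profile (control blue, auxin orange, dashed for replicate 2) against distance from the low-coordinate end of Grin2a in kb, with bars for the gene (black), the run of 6 called bins (green) and the 2 regions in the authors' deposited table (purple). Lower panel, auxin minus control; the difference exceeds 1 over most of the run, is smaller in the high-coordinate part of the gene, and is above 0 in the flanks except for a short dip just past the high end.

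The flanks of Grin2a were earlier with auxin as well. The 500 kb below the gene scored 1.26 and 1.04 in control cells and 2.05 and 1.91 with auxin, a difference of 0.83, close to that of the gene body. The 500 kb above it scored 1.19 and 0.89 in control cells and 1.57 and 1.61 with auxin, a difference of 0.55. In both flanks the groups did not overlap. The neighbouring protein-coding genes are far away: 1810013L24Rik lies 709 kb below and differed by 0.60, and the ribosomal protein-like gene Rpl39l lies 174 kb above and differed by 0.54, both without overlap between groups.

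The slope of timing along a gene tells whether it sits in an even domain or in a transition between domains. Along Grin2a, scores climbed by 0.24 and 0.25 per 100 kb in control cells and by 0.012 and 0.056 with auxin, so that the slopes did not overlap and the auxin profiles were nearly level from end to end. The mean slope was 0.24 ± 0.0084 in control cells and 0.034 ± 0.032 with auxin (SD, n = 2). A single slope describes a valley poorly, and these values compare its ends more than its depth. The share of all genes whose slopes lie apart between groups was not computed. Slopes that lie apart, here and in the members below, are therefore a description.

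Of the other long members, Gria1, Grin2b, Gria2, Gria4 and Grik1 had sloped profiles. Gria1 is a steep transition, from -3.21 at its first window to -0.32 at its last in the control mean, with slopes of 0.82 and 0.97 per 100 kb in control cells and 0.78 and 0.80 with auxin. Both auxin slopes lay below both control slopes. Grin2b descends from 0.52 to -1.67 in the control mean, with slopes of -0.53 and -0.65 in control cells and -0.45 and -0.50 with auxin. Its auxin slopes were shallower without overlap. Gria2 climbed by 1.48 and 0.86 per 100 kb in control cells and by 0.66 and 0.68 with auxin. The control slopes of Gria2 lay further from each other than the group means did, and it rests on 18 windows. With 50 kb added on both sides, its mean slopes were 0.93 in control cells and 0.91 with auxin, nearly equal.

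Gria4 descended by -0.48 and -0.38 per 100 kb in control cells and -0.37 and -0.25 with auxin. Its auxin slopes were the shallower pair, by a margin far smaller than the gap within either group. Grik1 had slopes of -0.28 and -0.060 in control cells and -0.26 and -0.11 with auxin, which overlapped. Grik2 was level, with slopes between -0.068 and 0.072 in the 4 profiles, and lies wholly in late-replicating sequence. In the short Grin1, Grin2c and Grin2d, slopes over 3 to 5 windows are imprecise: the auxin replicates of Grin1 gave -0.72 and 2.00 per 100 kb.

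Places where the score crosses 0 show how these genes sit in their domains. Grin2b crossed from early to late inside the gene, 72.0 and 124 kb from its low end in control cells and 101 and 151 kb from it with auxin. These values overlap between groups, unlike those of Grin2a. Gria1 crossed from late to early only beyond its high end, at 338 and 355 kb from the low end in control cells and 377 and 378 kb with auxin, so the late part reached further with auxin in both replicates. Over the 500 kb above Gria1 the groups differed by -0.31, while the gene body differed by 0.19. For Gria2, Gria4 and Grik1, all crossings within 300 kb lay outside the gene, and Grik2 had none.

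Window by window, members other than Grin2a were mixed. The share of all windows without overlap was not computed, and neighbouring windows are not independent. The counts that follow are therefore a description. Over whole genes, 23.9% lay earlier and 25.9% later without overlap. Those are shares of gene means and not of windows, so they are no measure for these counts. In Grin2b, 29 of 78 windows lay earlier without overlap and 0 later, and in Gria1 19 of 54 lay earlier and 4 later. Gria4 had 1 of 47 earlier and 22 later, and Grik2 had 9 of 59 earlier and 16 later. Grik1 and Gria2 had 0 earlier and 5 later each, of 35 and 18. The lower scores of Gria4 did not reach its start: the window nearest the promoter printed above scored -2.42 and -2.61 in control cells and -2.14 and -2.40 with auxin, a difference of 0.25 where the body differed by -0.26. At the start of Gria2 the scores were -1.56 and -1.49 in control cells and -1.64 and -2.17 with auxin, lower without overlap, while over the body the groups overlapped.

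**Figure D4:**
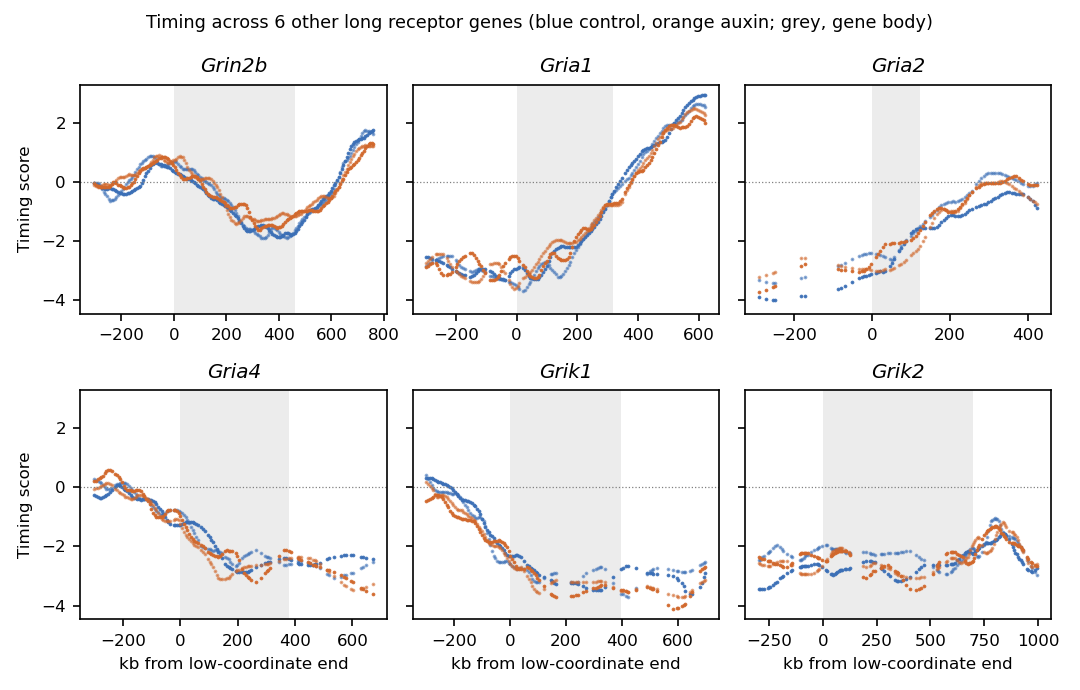
Timing score against distance from the low-coordinate end (kb) for 6 long members, each point a window of a profile, control blue and auxin orange, replicate 2 paler, with the gene body shaded. Grin2b falls and Gria1 rises across the body, and Gria4 and Grik1 fall in the low-coordinate part of it. Group means of the windows present in Grik2 lie between -2.78 and -2.14 in control cells and between -3.27 and -2.10 with auxin.

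No other member lay near a region of the authors' deposited tables. The nearest in the authors' deposited tables ranged from 1.64 Mb away (Grin2b) to 41.2 Mb away (Grin2c). The nearest called run of 50-kb bins lay between 962 kb (Gria1) and 9554 kb (Gria4) from these 9 genes. Among the nearest neighbours, Nmur2, a neuromedin U receptor gene 971 kb below Gria1, differed by -1.09. On either side of Grik1, Bach1, a transcriptional repressor gene, differed by -0.56 and Cldn17, a claudin gene, by -0.81, and the 500 kb above Grik1 by -0.60. In each of these, as in Grik1, both auxin values were lower than both control values. Near Grik2, Hace1 at 3381 kb below differed by -0.28 and Ascc3 at 803 kb above by -0.50, while Grik2 itself differed by -0.052.

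Around the early NMDA receptor genes the neighbours lie close and scored much like the member. Lrrc26, which overlaps Grin1, differed by 0.50, Tmem210 by 0.48 and Man1b1 by 0.29, beside 0.59 for Grin1, and these values share windows or adjoin. Next to Grin2c, Fdxr differed by 0.48 and Tmem104 by -0.018. Next to Grin2d, Grwd1 differed by -0.018 and Kdelr1 by -0.11. Beside Grin2b, Emp1 differed by 0.096 and Eif4a3l1 by -0.29. Near the AMPA receptor genes, Fam114a2 above Gria1 differed by 0.030, Gask1b and Glrb beside Gria2 by -0.11 and 0.043, and Msantd4 and Casp1 beside Gria4 by 0.038 and 0.085, all with overlapping groups.

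Elsewhere in the genome, the genes whose 4 scores were most like those of Grin2a, by Euclidean distance over the 4 profiles, were Atxn1 (distance 0.052), Cabcoco1 (0.17), Adam12 (0.19), Gm9119 (0.24) and Cpped1 (0.25). Of these 5, Cpped1 lies on chromosome 16, as Grin2a does. Atxn1, the ataxin-1 gene, scored -0.73 and -1.01 in control cells and -0.029 and -0.12 with auxin over 70 windows, close to Grin2a in each profile. Their differences ran from 0.67 for Cabcoco1 to 0.96 for Adam12, and these genes were found by their likeness to Grin2a in the same 4 profiles. The nearest matches of 8 other members were Stat2 for Grin1, Anxa5 for Grin2b, Lrrn2 for Grin2c, Bysl for Grin2d, Kcnma1 for Gria1, P2ry14 for Gria2, Rpe65 for Gria4 and Ccdc50 for Grik1, at distances from 0.089 (Bysl) to 0.25 (P2ry14).

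The other 8 ionotropic subunits also held both early and late genes, 3 early, 1 in the middle and 4 late. In the limma fit over all genes with Benjamini-Hochberg adjustment, 0 of the 8 were called, where 0% of all genes were, and 2 had an unadjusted p under 0.05, where 17.1% of all genes did. One of these was Grid1, a delta receptor gene whose product works as a synaptic organiser. It scored -1.41 and -1.30 in control cells and -0.62 and -0.73 with auxin, a difference of 0.68 (SE 0.20, limma adjusted p = 0.195, and 0.0576 with a trended, robust variance). The auxin values of Grid1 were higher in 2 of 2 replicates, but it did not pass the test.

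The 3 early genes among these were Grik5 at 3.73 and Grik3 at 2.08 in the control mean, both kainate subunits, and Grin3b at 3.20, a glycine-binding NMDA subunit whose value comes from the nearest window. Grik4, a kainate subunit, was in the middle at 0.28. Gria3, an AMPA subunit on the X chromosome, was late at -1.48 and Grin3a, a glycine-binding NMDA subunit, at -2.48. Their differences were -0.32 for Grik5, 0.15 for Grik3, 0.22 for Grin3b, -0.22 for Grik4, 0.18 for Gria3 and -0.25 for Grin3a. Among these 6, groups did not overlap in Grik3 and Grin3a only, and the limma adjusted p of the 6 lay between 0.591 and 0.746.

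**Figure D5:**
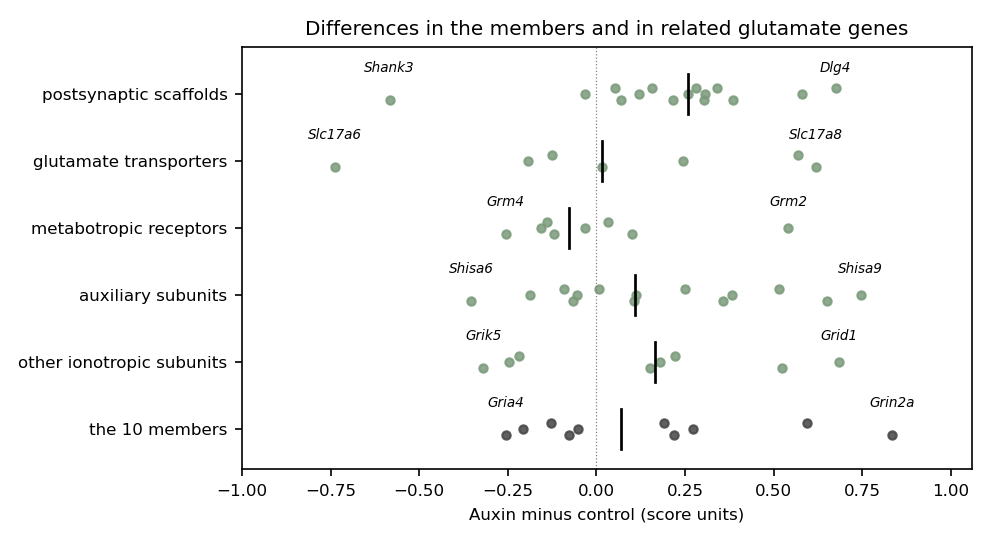
Auxin minus control in timing score units for the 10 members and for each list of related glutamate genes, a point per gene, with the median as a vertical line and the lowest and highest gene named. Medians lie between -0.076 (metabotropic receptors) and 0.26 (postsynaptic scaffolds).

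Among other genes of glutamate signalling, the limma fit over all genes with Benjamini-Hochberg adjustment called 0 in each list. The counts at an unadjusted p under 0.05 that follow stand beside 17.1% of all genes. Of 14 auxiliary subunits, which set receptor trafficking and gating, 3 had an unadjusted p under 0.05, and the median difference was 0.11. The largest differences were 0.75 in Shisa9 (limma adjusted p = 0.218) and 0.65 in Cnih3 (limma adjusted p = 0.229). Shisa9 lies on the same chromosome as Grin2a, at 11983593 to 12270904 on chromosome 16. Of 8 metabotropic receptors, which signal through G proteins, 1 had an unadjusted p under 0.05: Grm2 differed by 0.54 (limma adjusted p = 0.248) and Grm4 by -0.26 (limma adjusted p = 0.626). Of 7 glutamate transporters, 2 had an unadjusted p under 0.05, both vesicular transporters that load glutamate into synaptic vesicles, and they differed in opposite directions. Slc17a6 scored -2.37 and -2.20 in control cells and -3.11 and -2.93 with auxin, a difference of -0.74 (limma adjusted p = 0.184). Slc17a8 differed by 0.62 (limma adjusted p = 0.215), and was called earlier with a trended, robust variance (limma adjusted p = 0.0497), where 2.01% of all genes were called earlier and 3.3% later.

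Of 15 postsynaptic scaffolds, which hold receptors at the synapse, 3 had an unadjusted p under 0.05 and the median difference was 0.26, against -0.00049 over all genes. Groups lay apart and earlier in 7 of the 15 and later in 1, where 23.9% and 25.9% of all genes did. Dlg4, the gene of the main postsynaptic density scaffold, scored 2.72 and 3.15 in control cells and 3.44 and 3.78 with auxin, a difference of 0.68 (limma adjusted p = 0.249). Shank3, which links receptor complexes to actin, scored 2.66 and 2.87 in control cells and 2.16 and 2.20 with auxin, a difference of -0.58 (limma adjusted p = 0.240). Of the 15 scaffolds, 11 were early (73.3%), and their median length is 101 kb.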

How the data were processed

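Repli-seq timing profiles were analysed as deposited. Each deposited timing score is a value of the authors per window and replicate, joining an early and a late library; the columns are quantile normalized, per the file headers and the values, since all 4 are identical once sorted. Bowtie2, SAMtools, bedtools and the mm10 build are named in the submitters' processing notes; versions, smoothing and the formula behind the values remain not given in the sources used here. No file gives read counts, so depth is unknown and sets no interval. The direction of the score follows from the authors' 2 deposited lists of regions, whose scores were copied for those at Grin2a.

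Gene bodies are those of RefSeq on GRCm38.p6, whose coordinates are those of mm10. A gene's score is the mean of the windows overlapping it, or of the nearest within 50 kb (1064 genes). Gradients are least squares slopes over those windows. The auxin and control profiles were compared by limma 3.58.1 in R 4.3.3 (no trend, not robust, treatment as the only term, 2 profiles per group). The fits ran over 21078 genes and over 42710 bins of 50 kb with at least 3 windows, with Benjamini-Hochberg adjusted p under 0.05. The gene fit was also run on simulated data. Their spread was drawn from the fitted model itself, so that run is no check of its assumptions. The members and the lists were chosen with earlier results of these data known. Named genes are the members, the other 8 ionotropic subunits, of each other list the 2 largest differences, the nearest neighbours, and the genes most alike in score (5 for Grin2a, 1 for the others), over 1 Mb away and with at least 3 windows. Of these, 2 genes are not reported here. Alternatives changed the gene summary, the variance model, the bins, the replicate block and the profiles left out.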

Additional observations from a re-analysis of the deposited data

How the results depend on the processing

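The counts of calls changed with the variance model, and why was not tested. The count of genes called was 0, and 1118 with the trended, robust variance; leaving out a profile gave between 0 and 1, the 1 being without control replicate 1. The count of 50-kb bins called was 707, against 1 over all bins with a window, 4626 with the trended, robust variance, 1559 for 100-kb bins with at least 6 windows, and between 0 and 127 with a profile left out (127 without control replicate 1, 0 without any other profile). With the replicate block as a paired fit, 2358 bins and 0 genes were called. Replicates with the same number deviated together only weakly (r = 0.105 over genes and 0.038 over bins), and nothing else says that the numbers pair the profiles. Related glutamate genes called went from 0 to 1 (Slc17a8) with the trended, robust variance. Of the 10 members, 1 (Grin2a) was called earlier with that variance, where 2.01% of all genes were. Grin2a was chosen for lying in a run that moved earlier, so its call is a description and no test.

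Of 76 alternatives for the members' differences, 70 stayed within the replicate spread, 5 moved and 1 reversed. Leaving out a profile shifts a difference only by part of that group's replicate gap. Those alternatives stayed within the spread by construction, so the count of 70 is no measure of robustness. The difference of Gria4 turned to 0.25 in the window nearest the gene start. Without auxin replicate 2, Grin2d turned to 0.016 and Gria2 to 0.19, and without control replicate 2, Grik2 turned to 0.14. Grin2a lay between 0.68 and 0.99 with a profile left out and at 1.03 as a median over windows. Of 80 alternatives for the members' gradients, 11 moved and 2 reversed. The 2 reversals came with 50 kb added on both sides: the control gradient of Grin1 turned to -0.061 and the auxin gradient of Grik2 to 0.014. Among those that moved, the auxin gradient of Gria2 went from 0.67 to 0.91 with the same 50 kb added. The cause of these changes was not tested. The gene-start alternative was not run for Grin2a, Grin2b, Gria1 and Grik1, whose strand was not used here.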
